A study of Mus musculus with 6 samples.

Results

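Solute carriers are the membrane proteins that move sugars, amino acids, ions, nucleosides, vitamins and metabolites across cell and organelle membranes. Their transcripts were examined in mIMCD3 cells, a mouse line derived from the inner medullary collecting duct, after 1 h with vehicle or with aldosterone. The members were all probe sets whose only annotated gene symbol began with Slc followed by a digit. They numbered 185, for 151 of the 8251 genes named on the array, and 1 more probe set, which carried several symbols, was left out. The experiment was run in 3 replications, each with 1 vehicle and 1 aldosterone array, so each group held 3 arrays. The labels name no genetic change and no hormone dose, and the cells are a cultured line rather than tissue. They do not say how separate the cultures were, so that p-values cover only the variation among these arrays, which may be technical.

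Aldosterone acts through the mineralocorticoid receptor, a nuclear receptor that binds DNA elements shared with the glucocorticoid receptor, and raises sodium reabsorption in the distal nephron and collecting duct. Solute carriers do much of the salt, acid-base and osmolyte transport of the kidney, and many mark a nephron segment. Others serve every cell, among them the mitochondrial carriers of the Slc25 family and the zinc carriers of the Slc30 and Slc39 families. Membership follows the gene's name, and by name the set also took in Slc9a3r1 and Slc9a3r2, which encode scaffold proteins that bind the sodium-proton exchanger, and Slc4a1ap, named for its link to the anion exchanger.

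Arrays were scaled to a common trimmed mean of 2090, and differences are aldosterone minus vehicle on the scale of log2(intensity + 53.01), with the standard error (SE) of the fit. The aldosterone array of replication 3 was deposited on a lower scale and was multiplied by 24.2, which makes 1 step of its stored values 2.42 units. The 40th percentile of the mean log2 value was 8.87, and brighter probe sets were tested. The kinase gene Sgk1, a known early aldosterone target, averaged 834 ± 211 on the vehicle arrays (SD, n = 3) and 2664 ± 367 on the aldosterone arrays (SD, n = 3), a difference of 1.63 (limma adjusted p = 0.242, and 0.0509 with the replicate block). Of 19 listed collecting duct and epithelial markers 14 were on the array and 7 were tested. The tested ones were the cadherins Cdh1 and Cdh16, Epcam and the keratins Krt7, Krt8, Krt18 and Krt19. Aqp2, Aqp4, Avpr2, Elf5, Gata3, Hsd11b2 and Tfap2b were below the threshold. The brightest probe sets of the 14 summed to 64688 to 79190 on the vehicle and 60827 to 71423 on the aldosterone arrays. The principal-cell water channel Aqp2 had a mean log2 value of 8.08, below the threshold, although it reached 762 on the aldosterone array of replication 3. Of 8 leukocyte markers Cd14 and Cd68 were tested, and of 7 endothelial markers Eng was.

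Gene starts were searched for the receptor's 6-base element AGAACA, in that form or as TGTTCT on the other strand, and for the palindrome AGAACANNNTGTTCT, which contains both. The RefSeq promoters of assembly GRCm38.p6, from 250 bases before to 50 bases after each start, covered 124 of the 151 genes with 175 promoters. The element lay in 27 of these (15.4%), in 10 of the 109 promoters of tested genes (9.17%) and in 6233 of all 32851 promoters (18.97%). The palindrome lay in 0 of the 175 and in 3 of all 32851, among them 1 of the 6 promoters of Sgk1. Printed here are that Sgk1 promoter, as an example of the full element, and the promoters of the 3 solute carrier genes that held the short element and had a probe set with one direction in all replications. Each sequence holds the 250 bases before the start, with capitals on the element in either form. They lie at chr10:21993640-21993889 on the plus strand (Sgk1), chr13:100833428-100833677 on the minus strand (Slc30a5), chr17:45597152-45597401 on the minus strand (Slc29a1) and chr11:78465451-78465700 on the plus strand (Slc46a1).
Sgk1: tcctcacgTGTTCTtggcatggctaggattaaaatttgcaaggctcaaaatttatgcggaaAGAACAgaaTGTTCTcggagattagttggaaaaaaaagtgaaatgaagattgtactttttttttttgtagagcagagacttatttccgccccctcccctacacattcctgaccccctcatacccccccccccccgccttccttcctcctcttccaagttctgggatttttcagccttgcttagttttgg
Slc30a5: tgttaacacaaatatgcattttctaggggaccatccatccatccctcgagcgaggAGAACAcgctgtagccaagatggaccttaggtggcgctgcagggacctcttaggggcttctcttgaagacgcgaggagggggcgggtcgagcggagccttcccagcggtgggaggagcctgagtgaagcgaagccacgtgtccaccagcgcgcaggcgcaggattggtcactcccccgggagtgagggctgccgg
Slc29a1: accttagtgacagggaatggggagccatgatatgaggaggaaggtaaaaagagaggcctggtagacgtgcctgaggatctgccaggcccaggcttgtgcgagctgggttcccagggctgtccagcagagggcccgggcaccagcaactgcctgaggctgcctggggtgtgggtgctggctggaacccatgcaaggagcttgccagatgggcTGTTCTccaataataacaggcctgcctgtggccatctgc
Slc46a1: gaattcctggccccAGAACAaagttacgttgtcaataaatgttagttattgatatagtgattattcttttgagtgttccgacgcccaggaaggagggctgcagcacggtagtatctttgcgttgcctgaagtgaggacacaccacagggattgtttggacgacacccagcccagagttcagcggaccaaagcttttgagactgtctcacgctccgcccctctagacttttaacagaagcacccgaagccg
The Sgk1 palindrome begins at position -189 from the start, and a single element lies further upstream at -242. The elements of the carriers begin at -195 in Slc30a5, -39 in Slc29a1 and -236 in Slc46a1. A match describes the letters only, and binding was not measured.

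Of the 185 members 104 (56.2%) were above the 40th percentile, for 93 genes, and the other 58 genes had no tested probe set. Just above the threshold were the UDP-galactose carrier Slc35a2 with a mean log2 value of 8.93, the fructose carrier Slc2a5 (8.95) and Slc25a45 (8.95). Just below it were the monocarboxylate carrier Slc16a1 (8.79), the amino acid carrier subunit Slc3a1 (8.76) and the organic solute carrier subunit Slc51a (8.72). Substrate classes followed the family number, so a class can hold carriers of other substrates. By class, the tested probe sets were 19 of 24 for mitochondrial carriers, 17 of 23 for metal ions and 11 of 14 for nucleosides and nucleotide sugars. They were 20 of 43 for amino acids, 5 of 13 for sugars, 7 of 18 for organic ions and 2 of 9 for phosphate, sulfate and carboxylates. The sodium-calcium exchanger Slc8a1 was below the threshold in all 3 of its probe sets.

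No solute carrier transcript passed the test for aldosterone at 1 h. In limma's fit 0 of the 104 had an adjusted p under 0.05, beside 0% of all 7453 tested probe sets, and the replicate block gave 0 and 0% again. The smallest adjusted p of a member was 0.9995, or 0.9978 with the block. At an unadjusted p under 0.05 limma held 1 member (0.962%) against 0.966% of all, and with the block 2 members (1.92%) against 3.35%. Differences above 0 were found for 48 members (46.2%) against 49.9% of all, and the members' median was -0.0076, against -0.00029. The members' quartiles were -0.15 and 0.09, and those of all tested probe sets -0.10 and 0.10.

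**Figure D1:**
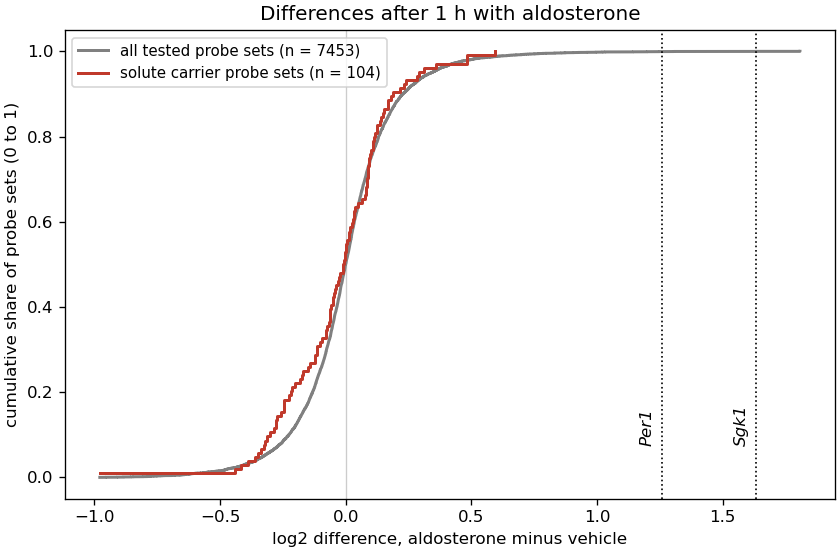
Cumulative share of probe sets (y axis) by their log2 difference between aldosterone and vehicle (x axis), for the 104 tested solute carrier probe sets and for all 7453 tested probe sets, with Sgk1 and Per1 as dotted lines. The solute carrier curve ends at 0.60, to the left of Per1 at 1.26 and Sgk1 at 1.63.

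How small a change could be seen depended on brightness. In the fit on group alone, the 95% interval of the difference excluded a 1.5-fold change in both directions for 48 of the 104 members. That was 46.2%, against 49.4% of all tested probe sets. The interval excluded a 2-fold change for 90 (86.5%, against 87.1%). Among the 35 brightest members 27 excluded a 1.5-fold change, and the median SE was 0.167. Among the 35 dimmest 4 did, and the median SE was 0.302. With the replicate block, a 1.5-fold change was excluded for 60 of the 104 members and a 2-fold change for 99. Over all 7453 tested probe sets those counts were 4898 and 6865.

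The direction within replications gave shares near the background. Of the 104 members 7 (6.73%) were higher in all 3 replications and 13 (12.5%) were lower, against 10.5% and 11.5% of all tested probe sets. With the arrays scaled to a common median this split was 10 and 10. At that scaling 19.3% of all tested probe sets had one direction in all 3, and their split is not given. The median difference was then 0.0198 for the members and 0.0271 for all tested probe sets. A difference of at least 1.5-fold in every replication was found for 0 members upward (0.121% of all) and 0 downward (0.0403% of all). In replications 1, 2 and 3 taken singly, 3.85%, 4.81% and 5.77% of the members were at least 1.5-fold higher, against 5.55%, 6.53% and 2.55% of all. At least 1.5-fold lower were 2.88%, 10.6% and 6.73% of the members, against 2.42%, 5.96% and 4.67% of all. All aldosterone arrays lay above all vehicle arrays for 2 members (1.92%, against 1.91% of all) and below them for 1 (0.962%, against 2.27%). Across the 104 members, which share arrays and scaling, the differences correlated at Pearson's r of 0.09 between replications 1 and 2, -0.0091 between 1 and 3 and -0.20 between 2 and 3. Over all 7453 tested probe sets r was -0.042, -0.032 and 0.024 in the same order.

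**Figure D2:**
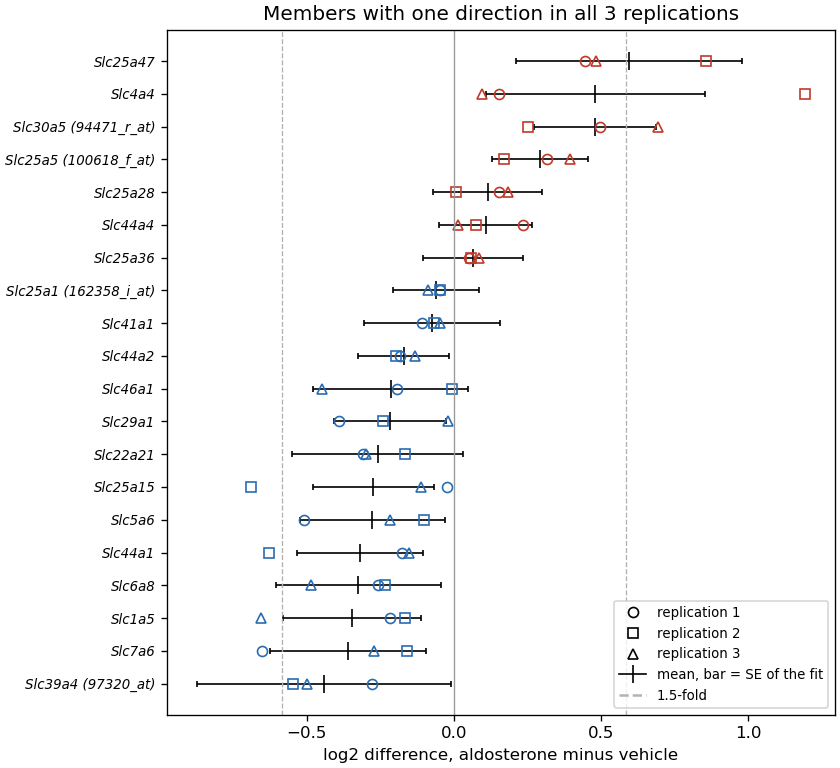
Log2 difference between aldosterone and vehicle (x axis) in each replication (symbols) for the 20 solute carrier probe sets with one direction in all 3, with the fitted mean, its standard error and dashed lines at a 1.5-fold change. There are 7 higher and 13 lower members, and 0 of them pass a dashed line in every replication.

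The zinc carrier Slc30a5, which loads zinc into vesicles of the secretory pathway, held the only member with an unadjusted p under 0.05 in limma's fit on group alone. Its brighter probe set gave 962, 920 and 965 on the vehicle arrays of replications 1, 2 and 3, and 1380, 1106 and 1593 on the aldosterone arrays. All aldosterone arrays were above all vehicle arrays, with a difference of 0.48 (SE 0.208, limma unadjusted p = 0.0447, adjusted p = 0.9995). The dimmer probe set of the gene gave 1000, 1782 and 985, then 841, 792 and 1127, a difference of -0.39 (SE 0.276). The signs were opposite, so no direction is given for the gene.

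The mitochondrial ADP/ATP carrier Slc25a5 was the other member without overlap upward. Its brightest probe set had vehicle values of 3372, 3399 and 2654 and aldosterone values of 4209, 3830 and 3503. The difference was 0.29 (SE 0.163, limma unadjusted p = 0.104, and 0.0306 with the block). Its next probe set differed by -0.12 (SE 0.311), again with the opposite sign, and the last was too dim to be tested. Slc44a2, of the choline carrier-like family, had the only arrays without overlap downward and was named after its values were seen. Vehicle arrays gave 2181, 2089 and 2249, aldosterone arrays 1913, 1817 and 2045, and the difference was -0.17 (SE 0.156).

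Carriers of salt and acid had no call, with 3 differences above and 1 below 0 for bicarbonate, proton and anion exchange (median 0.10) and 2 and 2 for cation-chloride cotransport (median 0.03). The sodium bicarbonate cotransporter Slc4a4 gave 669, 247 and 449, then 750, 633 and 484 with aldosterone, and its groups overlapped. Its difference of 0.48 (SE 0.372) was 1.19 in replication 2 but 0.15 and 0.10 in replications 1 and 3. Slc12a2, the basolateral sodium, potassium and chloride cotransporter, gave 10536, 9955 and 7996 against 10991, 8560 and 8333. Its 95% interval of -0.40 to 0.33 excluded a 1.5-fold change. The intervals of the potassium chloride cotransporters Slc12a4 (-0.17, interval -0.55 to 0.20) and Slc12a7 (0.09, interval -0.37 to 0.55) excluded it too. The phosphate carrier Slc20a1 stood at -0.31 (SE 0.297), higher in replication 2 and lower in the other replications.

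Of 35 listed carriers of nephron segments and collecting duct, 16 were on the array and 7 were tested, with 3 differences above and 4 below 0, 0 calls in either direction and a median of -0.0056. The 9 below the threshold included Slc12a1 of the thick limb, Slc12a3 of the distal convoluted tubule, Slc34a1, Slc22a6 and Slc5a1 of the proximal tubule and Slc4a1 of intercalated cells. Other markers of these cells were above the threshold, Cyp4b1, Gatm and Lrp2 for the proximal tubule, Car2, Car12 and Kit for intercalated cells and Pvalb for the distal tubule. Slc12a1 gave 156, 368 and 243 with vehicle, then 142, 313 and 118. Slc12a3 gave 157, 97.9 and 129, then 220, 42.2 and 145. Both overlapped between groups. Intensities of different probe sets give no order of transcript levels, because probes differ in their response.

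The amino acid class split evenly, with 10 differences above and 10 below 0 among 20 tested probe sets (median 0.04). Among the 10 below 0 were Slc6a2, Slc6a4 and Slc6a8, which carry other substrates and belong to the class by family number. Slc3a2, the heavy chain of the CD98 heterodimers, gave 20578, 22380 and 17465 with vehicle, then 25009, 19967 and 16084. It was higher in replication 1 and lower in the others, with an interval of -0.39 to 0.39. Slc7a5, the light chain that carries large neutral amino acids, differed by -0.12 (SE 0.228). Slc7a6, another light chain, was lower in every replication, 750, 674 and 880 against 458, 598 and 720, by a mean of -0.36 (SE 0.266). Its other probe set, too dim to be tested, had the opposite sign (0.03). The glutamine carrier Slc1a5 was lower in every replication as well, 788, 939 and 1037 against 670, 830 and 638, with -0.35 (SE 0.234), while the neutral amino acid carrier Slc1a4 had 0.15 (SE 0.18). In the list of CD98 and amino acid stress carriers 12 of 14 genes were on the array and 6 were tested, 1 above and 5 below 0, with 0 calls and a median of -0.08.

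The noradrenaline carrier Slc6a2, named after its value was seen, had the lowest difference of all 7453 tested probe sets, -0.98 (SE 0.52, limma unadjusted p = 0.0914, adjusted p = 0.9995). Vehicle arrays gave 1192, 504 and 620 and aldosterone arrays 206, 212 and 836. Replications 1 and 2 were lower and replication 3 was higher, so the groups overlapped. The creatine carrier Slc6a8 was lower in every replication, by -0.33 on average (SE 0.28), and its other probe set, too dim to be tested, had -0.26.

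Osmolyte carriers take up compatible solutes and are known to protect medullary cells from high salt. Slc38a2, a neutral amino acid carrier that does so, gave 9657, 7261 and 12802 in its bright probe set with vehicle, then 9632, 7387 and 11570. Values differed between replications and lay close within each, with a difference of -0.04 (SE 0.227, or 0.0849 with the block). The other probe sets of Slc38a2, too dim to be tested, had 0.95, -0.06 and -0.06. In a limma fit of all probe sets the one at 0.95 had an unadjusted p of 0.0336 and an adjusted p of 0.9996. The taurine carrier Slc6a6 had -0.0039 (SE 0.142) in its brighter and 0.09 (SE 0.387) in its dimmer probe set. The betaine carrier Slc6a12 was too dim to be tested, at 176, 162 and 35.8 against 311, 428 and 222, and its arrays did not overlap. Of the 4 genes listed 3 were on the array and 2 were tested, both with brightest probe sets below 0 and 0 calls.

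**Figure D3:**
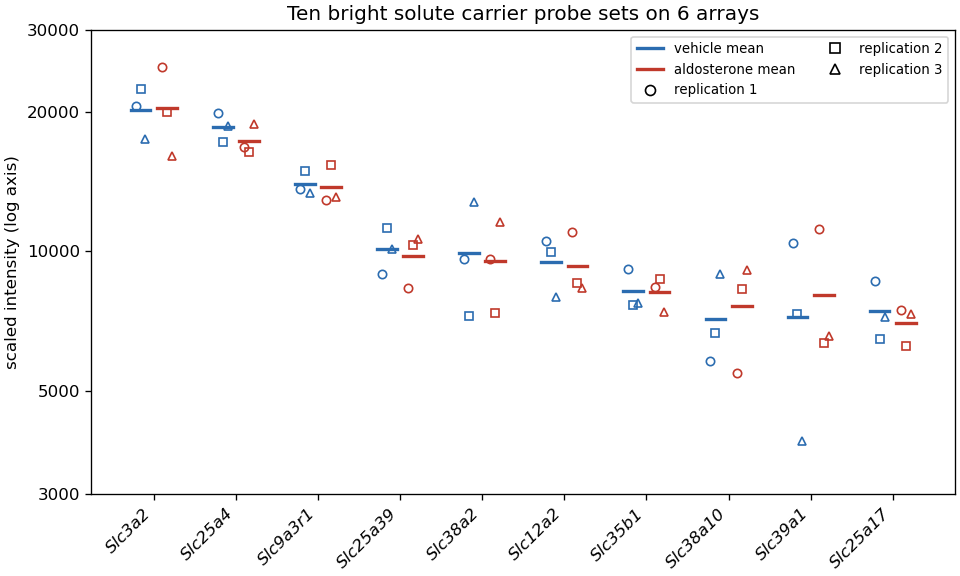
Scaled intensity (y axis, log scale) on the 6 arrays for the 10 solute carrier genes with the highest mean log2 value, vehicle and aldosterone side by side, with replications as symbols and group means as bars. The arrays of the groups overlap in all 10 genes, and levels of different genes cannot be compared.

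Metal ion carriers had 8 differences above and 9 below 0 in 17 tested probe sets (median -0.0096). The zinc importer Slc39a4 was lower in every replication in its dimmer probe set, 1130, 1495 and 555 against 922, 1007 and 377, with -0.44 (SE 0.431, or 0.215 with the block). Its brighter probe set had 0.14 (SE 0.324) and went both ways. The zinc importer Slc39a1 had 0.21 (SE 0.339). The magnesium carrier Slc41a1, named after its values were seen, was lower by -0.11, -0.07 and -0.05 in the replications.

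Mitochondrial carriers had 11 differences above and 8 below 0 in 19 tested probe sets (median 0.01). Of the 19, 4 (21.1%) were higher in every replication and 2 (10.5%) lower, against 10.5% and 11.5% of all tested probe sets, a difference that was not tested. Besides Slc25a5 the higher ones were Slc25a47 (0.60, SE 0.384), the iron carrier Slc25a28 (0.11, SE 0.186) and the pyrimidine nucleotide carrier Slc25a36 (0.06, SE 0.171). The signs of Slc25a28 and Slc25a36 turned when 1 array was left out, to as low as -0.028 and -0.050. Slc25a47 gave 538, 217 and 486, then 752, 436 and 701, with overlap between the groups. The ADP/ATP carrier Slc25a4 gave 19878, 17220 and 18649, then 16767, 16377 and 18777, and its interval of -0.37 to 0.16 excluded a 1.5-fold change. So did the glutathione carrier Slc25a39 (interval -0.39 to 0.28) and the peroxisomal carrier Slc25a17 (interval -0.42 to 0.26). The ornithine carrier Slc25a15 was lower in every replication, by -0.02, -0.69 and -0.11.

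The other classes with at least 5 tested probe sets had medians below 0 and no call. Carriers of nucleosides and nucleotide sugars had 4 differences above and 7 below 0 (median -0.06), and the sugar class had 2 and 3 (median -0.11). By family number the sugar class took in the vitamin carrier Slc5a6. Carriers of organic ions had 2 and 5 (median -0.06), and those of vitamins, heme, choline, lipids and urea 4 and 8 (median -0.13). The median of all tested probe sets was -0.00029, and 0 members of these classes had an unadjusted p under 0.05 in limma. The nucleoside carrier Slc29a1 gave 3071, 2645 and 3312, then 2328, 2230 and 3261, a difference of -0.22 (SE 0.19). A dim, untested probe set of Slc29a1 had -0.44. The folate carrier Slc46a1 had -0.22 (SE 0.263). Both were lower in every replication, as were the choline carrier Slc44a1 (-0.32, SE 0.215), the biotin and pantothenate carrier Slc5a6 (-0.28, SE 0.246) and the carnitine carrier Slc22a21 (-0.26, SE 0.29). Slc44a4 was higher in every replication (0.11, SE 0.158), but its other probe set, too dim to be tested, had -0.03. The carrier of ATP and ADP into the endoplasmic reticulum, Slc35b1, had an interval of -0.31 to 0.30, and the scaffold gene Slc9a3r1 one of -0.30 to 0.26.

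Several genes had more than 1 probe set. Of 29 such solute carrier genes 11 had 2 tested probe sets, and in 3 of the 11, Slc11a2, Slc25a51 and Slc35e1, both differences had the same sign. In the other 8, Slc30a5, Slc39a4 and Slc25a5 among them, the signs were opposite. The widest gap was that of Slc30a5, from -0.39 to 0.48.

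**Figure D4:**
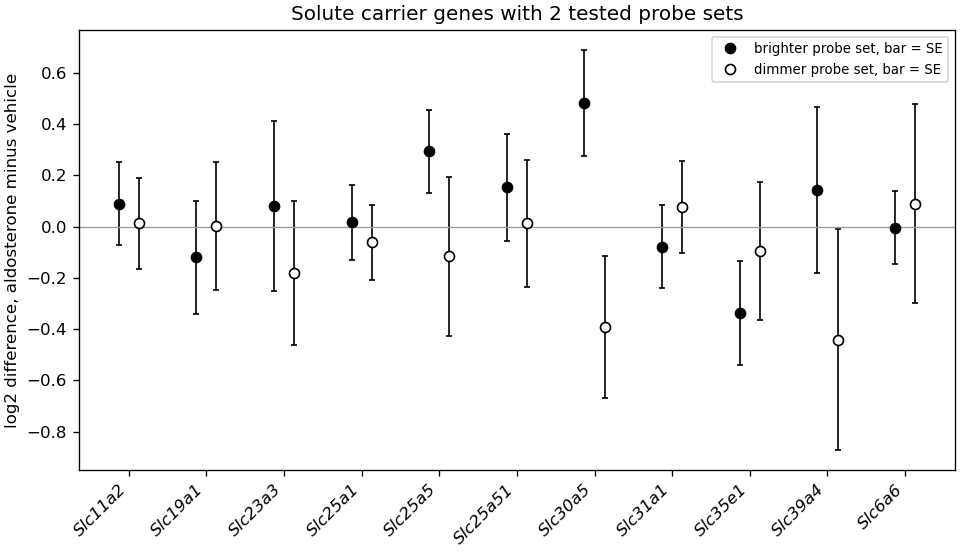
Log2 difference between aldosterone and vehicle with its standard error for the 11 solute carrier genes with 2 tested probe sets, the brighter one filled and the dimmer one open. The signs are alike in Slc11a2, Slc25a51 and Slc35e1 and opposite in the other 8 genes.

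Below the threshold the groups did not overlap in 7 of the 81 members, with 1 higher (1.23%, against 1.87% of all 4969 dim probe sets) and 6 lower (7.41%, against 6.98%). These shares are near the background. The higher one was Slc6a12, and the lower ones, named after their values were seen except Slc51a, were probe sets of Slc10a1, Slc25a3, Slc27a3, Slc38a10, Slc51a and Slc9b2. The bile acid carrier Slc10a1 had -1.10 in that probe set, and its other probe sets, also dim, had -0.08 and -0.15 with overlapping groups. The dim probe set of Slc38a10, of the neutral amino acid carrier family, gave 116, 173 and 107, then 13.7, 13.1 and 9.67. In a limma fit of all probe sets its difference was -1.49 (SE 0.300, adjusted p = 0.9996). The bright probe set of the gene gave 5814, 6662 and 8956, then 5472, 8311 and 9138, a difference of 0.09 (SE 0.224), and did not share the lower values of the dim one.

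More members differed between replications than between treatments, and so did more of all tested probe sets (583 against 0). Limma's test between replications called 5 of the 104 (4.81%) at an adjusted p under 0.05, against 7.82% of all tested probe sets. Slc38a2 was highest in replication 3 and lowest in replication 2, 1.66-fold apart (adjusted p = 0.0113). Slc39a1 was highest in replication 1 and lowest in replication 3, 2.11-fold apart (adjusted p = 0.0265). Slc38a10 was highest in replication 3 in its bright probe set (1.6-fold, adjusted p = 0.0317). Slc39a4 was highest in replication 2 in its dimmer probe set (2.51-fold, adjusted p = 0.0319). The fatty acid carrier Slc27a1 was highest in replication 3 (2.74-fold, adjusted p = 0.048). Next, and not called, were Slc7a5 (0.0638), Slc23a3 (0.0809) and Slc12a7 (0.0815). The count depended on single arrays: without vehicle replicate 1 or aldosterone replicate 1 it was 0 (0.590% and 1.34% of all tested probe sets), without vehicle replicate 2 it was 10 (9.62%, against 12.7% of all) and without aldosterone replicate 2 it was 11 (10.6%, against 17.3%). Without limma's intensity trend it was 0, against 2 of all tested probe sets. What differed between the replications is not given in the labels.

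**Figure D5:**
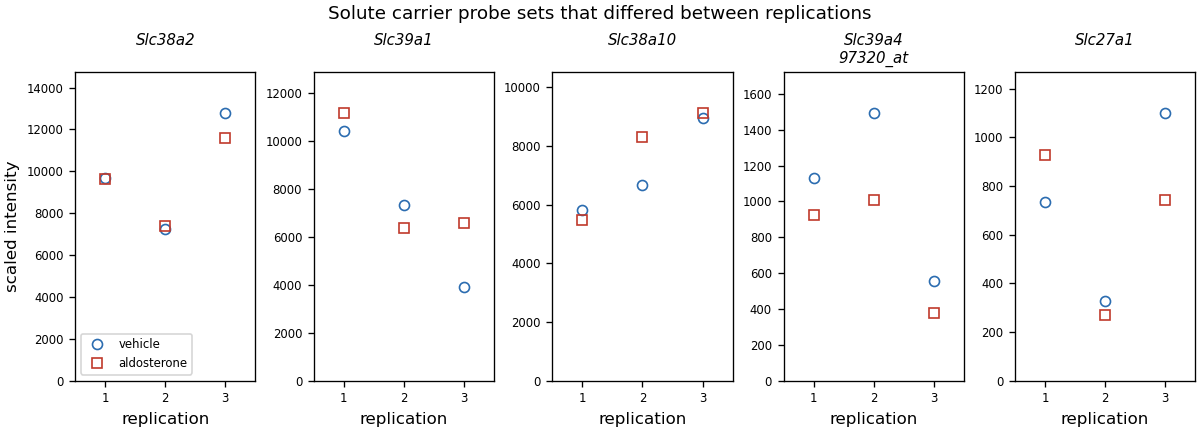
Scaled intensity by replication for the 5 solute carrier probe sets that differed between replications, with vehicle and aldosterone arrays as separate symbols. Slc39a1 is highest in replication 1, Slc39a4 in replication 2 and Slc38a2, Slc38a10 and Slc27a1 in replication 3.

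Other membrane transport genes, each by its brightest probe set, had 0 calls too. Of 17 tested ATP-driven pumps 11 had differences above and 6 below 0 (median 0.03), and of 12 tested ABC transporters 4 and 8 (median -0.04). Of 15 solute carriers linked with corticosteroids 9 were on the array and 6 were tested, 3 above and 3 below 0 (median 0.01), and 0 passed. Of 17 aquaporins and organic anion carriers Aqp8 and Slco3a1 were tested, and neither passed.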

How the data were processed

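RNA of mIMCD3 cells was measured in 3 vehicle and 3 aldosterone samples on 6 single-colour arrays. The authors deposited 1 linear intensity per probe set and array. For summarisation software and scaling target: not given in the sources used here. Trimmed means (2% off each end) differed by over 10%, so each array was scaled to their mean, 2090. The pseudocount, 53.01, is the 10th percentile of scaled values. Probe sets at or above the 40th percentile of the mean log2 value were tested, 7453 of 12422. Tests used limma 3.58.1 with R 4.3.3 (lmFit, eBayes with trend, two-sided, Benjamini-Hochberg over all tested probe sets, threshold 0.05). Intervals are 95%, and the scripts were tested on simulated data. The number of arrays limits precision.

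The replication number pairs the arrays, since per the labels a replication is a repeat of the whole experiment, and the deviations of its arrays from the group means correlated at 0.377, 0.387 and 0.471. The replicate block is an alternative fit that takes the pairing into account. Aldosterone errors, p-values and intervals printed with no mention of the block leave the pairing out. The median SE of the 104 members was 0.216 without the block and 0.172 with it. For all tested probe sets it was 0.209 and 0.153. With the pairing taken into account, 0 of the 104 members had an adjusted p under 0.05.

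Symbols came from the array annotation (10833 probe sets with 1, 396 with several, 1193 with none), and all 151 genes matched RefSeq GRCm38.p6. Substrate classes follow the family number. Members, lists and tests were chosen with earlier results of these data known. Members were named by rule: up to 10 higher and 10 lower with the largest mean difference among those with one direction in 3 replications, other probe sets of those genes, the 10 genes with the highest mean, the 8 with the smallest p between replications, up to 4 a list, and 3 on each side of the threshold. Members named for other reasons, such as for their counts, were chosen after their values were seen. Alternatives changed scaling, pseudocount, filter, trend, block, arrays left out, and probe sets per gene.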

Additional observations from a re-analysis of the deposited data

How the results depend on the processing

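The count of solute carrier probe sets with a limma adjusted p under 0.05 was 0 in all 18 alternatives, 3 of them blocked fits chosen after seeing the data. Over all tested probe sets the count was 9 with the block and without replication 3, and 6 with the block and no filter. It was 1 without vehicle replicate 2, and 0 in the other alternatives. The count at an unadjusted p under 0.05 was 1 of 104 as reported, against 72 of all 7453 tested probe sets. It was 2 with the replicate block (250 of all 7453) and 5 of 185 with no filter (262 of all 12422). With the filter at the 60th percentile it was 0 of 61 (38 of all 4969). With 1 array or replication 3 left out it was 0 to 2 (71 to 138 of all 7453). In the added fits it was 4 with the block and without replication 3 (348 of all 7453). It was 7 of 185 with the block and no filter (506 of all 12422). With the block and no intensity trend it was 4 (279 of all 7453). Members with one direction in every replication numbered 20 (19.2%, against 22.1% of all tested probe sets). They were 41 with no filter (10 higher and 31 lower; 22.2%, against 23.3%), 10 at the 60th percentile, where 61 members were tested (16.4%, against 21.9%), and 50 without replication 3, where 2 replications remained (48.1%, against 47.3%). The median difference moved from -0.0076 to -0.061 with no filter, where that of all probe sets was -0.027. The 5 members that differed between replications (583 of all tested probe sets) became 8 with scaling to a common median (819 of all). They became 0 with no intensity trend (2 of all) and 0 to 11 with 1 array left out (44 to 1292 of all). Of 24 named probe sets 17 kept their sign in all 12 alternatives. Part of this was fixed in advance, since the block leaves the difference as it is. Nor could leaving out replication 3 reverse a probe set named for one direction in every replication. Of the 17, 16, all but Slc30a5, moved by over 1.5 times with arrays left out, for example -0.83 to -0.03 for the dimmer probe set of Slc39a4, 0.15 to 0.78 for Slc4a4, -0.41 to -0.08 for Slc22a21 and 0.24 to 0.82 for Slc25a47. Leaving out arrays reversed the others, with ranges of -0.028 to 0.25 for Slc25a28, -0.050 to 0.17 for Slc25a36, -0.25 to 0.10 for Slc7a5, -0.051 to 0.26 for Slc12a7, -0.55 to 0.0046 for Slc20a1, -0.25 to 0.16 for Slc38a2 (0.011 without replication 3) and -0.34 to 0.43 for the dimmer probe set of Slc6a6 (0.52 without replication 3). Beyond the smaller number of arrays or probe sets, the cause was not tested. Dim probe sets had the widest errors, which limits what can be said of them.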
